A study of Mus musculus with 10 samples.

Results

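The 8 genes described here belong to fatty acid oxidation and were followed through 5 populations of mouse small-intestinal crypt cells. They were Cpt1a and Cpt2 of the carnitine shuttle, the acyl-CoA dehydrogenases Acadl and Acadm, the trifunctional protein subunit Hadha, the kinase Pdk4, and the nuclear receptors Ppara and Ppard. They were taken by name from the count tables, 8 of 35006 gene names, and all 8 passed the filter on low counts that left 13706 genes for testing. The cells came from EF1a-OSCAR mice of the C57BL6/J strain, whose age was not given. These mice carry, at the Rosa26 locus and in all cells after germline Vasa-Cre had removed a stop cassette, a reporter in which the EF1a promoter drives the fluorescent proteins mCherry and VeN90. The OSCAR signal is the ratio of VeN90 to mCherry, designed to be high where serine 2 of RNA polymerase II is little phosphorylated, and the EF1a level is the general brightness of the transgene. Live EpCAM+ cells were sorted into OSCARlow EF1alow (P1), OSCARhigh EF1alow (P2), OSCARlow EF1ahigh (P3), OSCARmed EF1alow (P4) and OSCARmed EF1ahigh (P5), 10000 cells a sample, with 2 replicates of each, 10 RNA-seq libraries in all. Every group carries the transgene, and there were no reporter-free mice among these libraries. Populations are gates on reporter fluorescence and not purified cell types, so fewer cells of a type and less RNA per cell cannot be told apart in any value below.

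To be burned, a long-chain fatty acid is first activated to acyl-CoA, passed to carnitine at the outer mitochondrial membrane by Cpt1a, carried inward, and returned to CoA by Cpt2. Acyl-CoA dehydrogenases matched to chain length, Acadl and Acadm among them, then open each round of beta-oxidation, and the trifunctional protein carries out the later steps for long chains. Pdk4 inactivates pyruvate dehydrogenase and so spares glucose, and Ppara and Ppard are lipid-sensing receptors that switch on many of these genes. In the intestine, fatty acid oxidation and the ketone bodies made from its acetyl-CoA are known for their bearing on crypt stem cells, and enterocytes meet dietary fat in bulk. None of the 8 genes encodes a ketogenic enzyme, so genes of ketone body metabolism are described from a list of their own.

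The libraries held 3857612 to 6485823 counts on named genes and 12694 to 17091 detected genes. Epithelial markers (7 of 7 genes detected in every library) summed to 4275 to 10930 CPM (counts scaled for library size by the trimmed mean of M-values, TMM), so the labelled epithelium was present throughout. Enterocyte markers summed to 33760 to 43300 CPM in P1, against 1928 to 4654 in P2, 7555 to 26980 in P3, 3755 to 11090 in P4 and 7377 to 19140 in P5. Fabp2 was the largest part of the P1 sum, at 17930 and 16610 CPM, and Fabp1, Apoa1, Apoa4 and Krt20 also had their highest means in P1. The rest of the list went otherwise. Sis, Lct, Slc5a1, Alpi and Anpep had lower means in P1 than in P3 and P5, as for Sis with 1232 against 4130 and 2802 CPM. The sum of stem cell markers was highest in P4 and P5, at 4356 to 7282 CPM, against 570.7 to 3066 elsewhere. Olfm4 was the largest part of the P4 and P5 sums, at 3070 to 5603 CPM. Lgr5, Olfm4, Ascl2, Smoc2, Axin2, Tnfrsf19 and Slc12a2 had their highest means in P4 or P5. Rgmb was instead highest in P2, at 290.2 and 201.8 CPM, against 108.2 to 161.3 in P4 and P5. Lgr5 in P2, at 80.47 and 81.18 CPM, lay above P5 replicate 1, at 71.97. The libraries labelled P2 stood apart, with Paneth markers at 401400 to 567700 CPM, against 508.1 to 63310 elsewhere, and they also held the highest goblet, tuft and enteroendocrine sums. The study's text places the mature secretory markers in P3, which is another gate, and so the libraries are named here by their labels only and a direction drawn from P2 or P3 rests on those labels. Both libraries labelled P3 carried a large share of mitochondrially encoded counts, 59.2% and 36.1%, against 1.04% to 5.19% elsewhere. The pattern across all populations is therefore also given without the libraries of P2, of P3, and of both.

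Tested across the 5 populations with the quasi-likelihood test of edgeR at a Benjamini-Hochberg adjusted p of 0.01, 4 of the 8 genes differed, Cpt1a, Cpt2, Acadm and Hadha, where 36.3% of all genes tested did. The 4 took 2 shapes. Cpt2, Acadm and Hadha were high in P1 and P3 and low in P2, while Cpt1a was low in P1 and P2 and high in P3, P4 and P5. Ppara, with an adjusted p of 0.0101, missed the threshold narrowly in this fit, and Pdk4 (0.0832), Acadl (0.0915) and Ppard (0.793) missed it as well. Without the libraries labelled P2 only Cpt1a differed (15.0% of all genes did), without those labelled P3 the 4 genes and Ppara did (48.1%), and without both pairs Cpt1a and Acadm did (29.0%). Cpt1a passed in each of the other fits across the populations that were run, including the 10 that each left out 1 library. Of the others, Acadm was lost only without P2 replicate 1 and without the P2 libraries. Cpt2 was lost without either P1 library or P2 replicate 1, and without the P2 libraries with or without those of P3. Hadha was lost in 8 of the 10 fits that left out a library, all but those without P3 replicate 1 or P3 replicate 2, and in the same fits without P2. The share of all genes called moved likewise. It was 18.4% to 25.9% in those 8 fits, and 41.6% and 44.2% without P3 replicate 1 and P3 replicate 2. These losses are therefore not particular to the 8 genes.

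**Figure D1:**
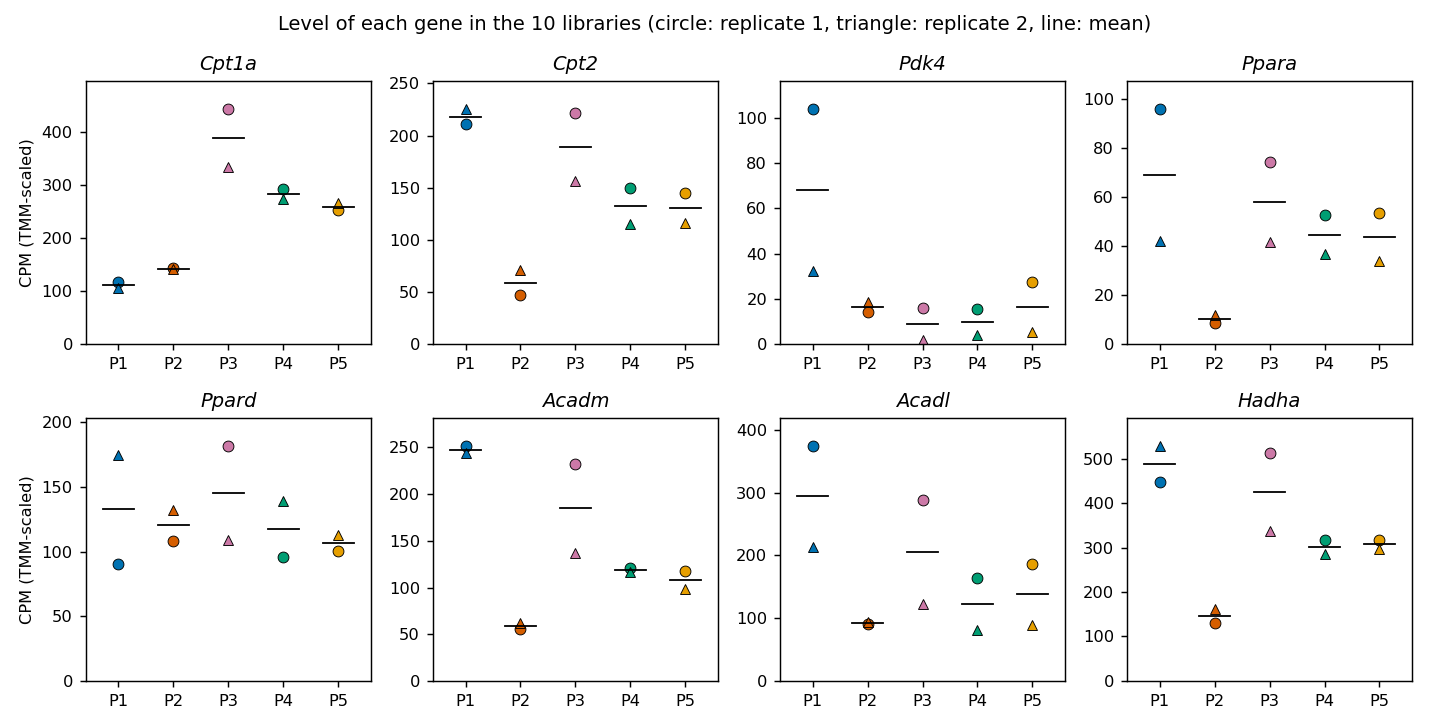
Level of the 8 genes in each library, in CPM after TMM scaling on linear axes that start at 0, for populations P1 to P5 (circles, replicate 1; triangles, replicate 2; lines, mean of the 2). Cpt1a lies at 105.7 to 143.9 in P1 and P2 and at 253.5 to 443.8 in P3, P4 and P5, whereas Cpt2, Acadm and Hadha are lowest in both P2 libraries.

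Cpt1a, the malonyl-CoA-sensitive gate of the shuttle, lies on chromosome 19 at 3323301 to 3385732 on the plus strand of NCBIM37 (mm9), with 19 exon blocks that overlap no other gene's exons. Its level was 118.3 and 105.7 CPM for P1, 143.9 and 141.9 for P2, 443.8 and 334.0 for P3, 293.5 and 274.4 for P4, and 253.5 and 266.0 for P5. The 4 libraries of P1 and P2 thus lay below the 6 others, and no P1 library reached a P2 library. Population means ran from 112.0 ± 8.86 in P1 (SD, n = 2) through 142.9 ± 1.43 in P2, 259.8 ± 8.88 in P5 and 284.0 ± 13.5 in P4 to 388.9 ± 77.7 in P3. Cpt1a was 3.47-fold lower in P1 than in P3 (log2 difference -1.79, SE 0.22, adjusted p = 0.00157), and 8.01% of all genes were called lower in P1 there. It was 2.54-fold lower in P1 than in P4 (-1.34, SE 0.22, adjusted p = 0.00209), where 9.44% of genes were called lower and 14.0% higher in P1. It was 2.32-fold lower in P1 than in P5 (-1.21, SE 0.22, adjusted p = 0.00355), where 8.59% of genes were called lower and 11.2% higher. Against P2, Cpt1a was lower than in P3 by -1.44 (SE 0.22, adjusted p = 0.00125) and lower than in P4 by -0.99 (SE 0.22, adjusted p = 0.00948). In those comparisons 10.6% and 6.31% of genes were called lower in P2, with 8.0% called higher in P2 than in P4. Of neighbours in the order of means, P1 and P2 differed by -0.35 (95% interval -0.84 to 0.14), P4 and P5 by 0.13 (-0.36 to 0.61) and P3 and P4 by 0.45 (-0.03 to 0.94), intervals that include 0. P2 lay below P5 by -0.86 (-1.35 to -0.37) without overlap of libraries, but with an adjusted p of 0.0161 that missed the threshold. Each of the 5 calls depended on single libraries. The P1 against P3 call was lost without P1 replicate 1 or P1 replicate 2 (adjusted p 0.00226 to 0.0122 over the 10 fits without 1 library) and when only the 4 libraries compared were fitted. The call against P4 was lost without any 1 of the P1 and P4 libraries (0.00101 to 0.0196), and that against P5 without any 1 of the P1 and P5 libraries (0.0016 to 0.0335). P2 against P3 was lost without P2 replicate 1 or P2 replicate 2 (0.00129 to 0.0105) and in the fit of those 4 libraries alone, and P2 against P4 held only where P3 replicate 1 or P3 replicate 2 was left out (0.00385 to 0.0655). The log2 differences kept their sign throughout, at -2.01 to -1.59 for P1 against P3 and -1.42 to -1.30 for P1 against P4.

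Cpt2, which hands the acyl group back to CoA inside the mitochondrion, lies on chromosome 4 at 107576586 to 107596215 on the minus strand in 5 exon blocks. It measured 210.9 and 225.3 CPM for P1, 47.2 and 70.9 for P2, 221.4 and 156.5 for P3, 149.4 and 114.9 for P4, and 145.2 and 115.8 for P5. Both P2 libraries lay below the other 8, while P1 and P3 overlapped, as did P4 and P5. Cpt2 was 3.68-fold higher in P1 than in P2 (log2 1.88, SE 0.28, adjusted p = 0.000976) and lower in P2 than in P3 by -1.67 (SE 0.28, adjusted p = 0.00207). Each call was lost without P2 replicate 1 (0.000719 to 0.0109 and 0.00249 to 0.019 over the fits without 1 library), and the second also in the fit of those populations alone. P1 and P4 did not overlap, but their difference of 0.72 (95% interval 0.11 to 1.34) had an adjusted p of 0.0589.

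The ratio of the 2 shuttle enzymes was lower in both P1 libraries than in the 8 others. Expressed per kilobase of exon, so that genes can be compared, Cpt1a was 27.5 and 24.6 CPM per kb in P1 and Cpt2 was 88.9 and 94.99. The ratio of Cpt1a to Cpt2 was 0.309 and 0.259 for P1, 1.68 and 1.10 for P2, 1.11 and 1.18 for P3, 1.08 and 1.32 for P4, and 0.963 and 1.27 for P5. No library outside P1 fell below 0.963. The same held against Hadha, with ratios of 0.328 and 0.248 for P1 and 0.989 to 1.37 elsewhere. These ratios are given as a description, and no test of them was run.

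**Figure D2:**
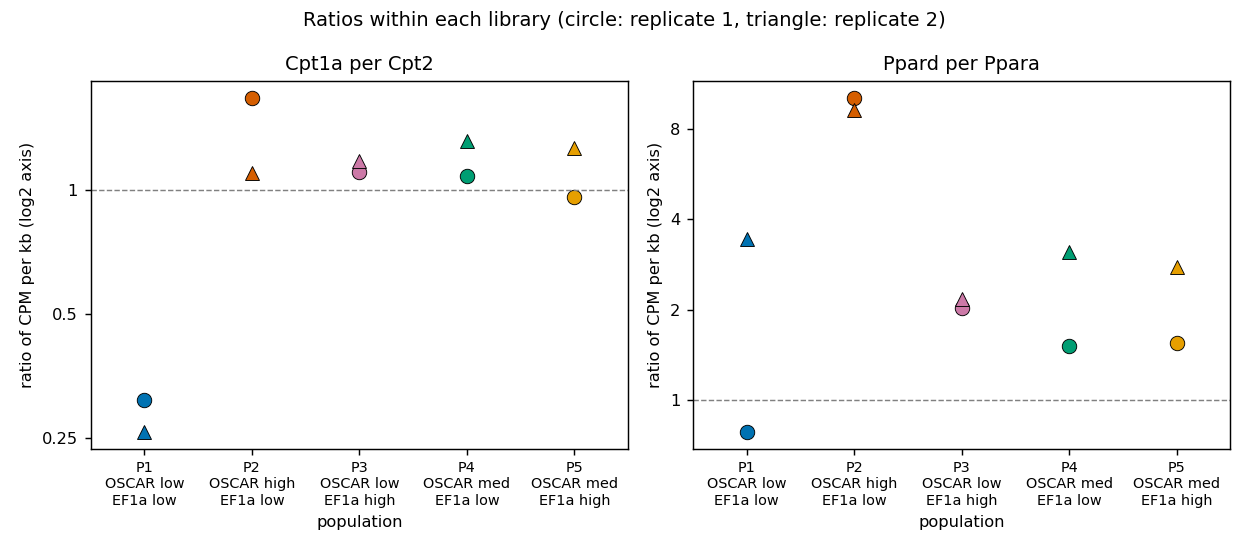
Ratio of Cpt1a to Cpt2 (left) and of Ppard to Ppara (right) in each library, from CPM per kb of exon, on log2 axes, by population and gate (circles, replicate 1; triangles, replicate 2; dashed line, equal levels). P1 stands apart on the left at 0.259 and 0.309, and P2 on the right at 9.25 and 10.2.

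The promoters of the 4 genes that differed across populations are shown because these genes moved in 2 shapes. They are the 250 bases before the RefSeq start, from GRCm38.p6, with capitals marking each AGGTCA hexamer, the core unit bound by nuclear receptors such as the PPARs, and each GC box (GGGCGG), on either strand. Cpt1a is at chr19:3323051-3323300 (plus), Cpt2 at chr4:107923590-107923839 (minus), Acadm at chr3:153944644-153944893 (minus) and Hadha at chr5:30154981-30155230 (minus).
Cpt1a: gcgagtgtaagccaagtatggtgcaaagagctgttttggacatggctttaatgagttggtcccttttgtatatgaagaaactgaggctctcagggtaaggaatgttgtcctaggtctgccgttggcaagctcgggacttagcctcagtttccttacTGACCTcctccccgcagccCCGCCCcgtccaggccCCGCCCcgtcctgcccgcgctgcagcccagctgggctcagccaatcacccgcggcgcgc
Cpt2: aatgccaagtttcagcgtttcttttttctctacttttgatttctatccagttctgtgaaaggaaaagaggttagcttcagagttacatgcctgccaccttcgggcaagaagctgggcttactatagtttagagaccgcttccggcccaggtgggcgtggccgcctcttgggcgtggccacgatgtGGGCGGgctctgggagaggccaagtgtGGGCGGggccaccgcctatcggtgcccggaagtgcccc
Acadm: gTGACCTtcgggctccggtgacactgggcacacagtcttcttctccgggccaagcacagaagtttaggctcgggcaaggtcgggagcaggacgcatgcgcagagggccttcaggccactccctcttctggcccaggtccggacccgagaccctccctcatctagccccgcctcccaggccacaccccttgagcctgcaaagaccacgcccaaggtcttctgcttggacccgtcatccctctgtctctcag
Hadha: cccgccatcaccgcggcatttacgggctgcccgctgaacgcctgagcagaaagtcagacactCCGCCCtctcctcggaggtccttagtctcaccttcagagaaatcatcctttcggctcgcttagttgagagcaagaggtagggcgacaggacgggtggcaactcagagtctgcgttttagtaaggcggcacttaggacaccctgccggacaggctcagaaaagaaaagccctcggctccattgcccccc
The AGGTCA hexamer was found in 2 of the 8 genes, Cpt1a (minus strand, 94 bases before the start) and Acadm (minus strand, 249 bases before), and in 14.0% of the 32851 promoters of this length. The full direct repeat AGGTCANAGGTCA was in 0 of the 8 and in 0.0335% of promoters. GC boxes were in 6 of the 8, all but Pdk4 and Acadm, and in 32.7% of promoters. Among the 3 genes that were low in P2, Cpt2 and Hadha held GC boxes and no hexamer and Acadm the reverse. A match in these letters is a description and not a binding site.

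Acadm, the medium-chain acyl-CoA dehydrogenase, lies on chromosome 3 at 153585321 to 153607596 on the minus strand in 10 exon blocks. It measured 251.6 and 243.9 CPM for P1, 55.2 and 62.4 for P2, 232.5 and 137.4 for P3, 121.0 and 116.1 for P4, and 117.7 and 98.6 for P5. P1 lay above every other library and P2 below, with the 2 replicates of P1 and of P2 close together and those of P3 apart. Acadm was 4.21-fold higher in P1 than in P2 (log2 2.07, SE 0.27, adjusted p = 0.000536), where 15.2% of genes were called higher and 13.9% lower in P1. Of the calls made here this one was kept in all 10 fits without 1 library (adjusted p 0.000187 to 0.00703). Acadm was also 2.29-fold higher in P1 than in P5 (1.20, SE 0.26, adjusted p = 0.0073), a call that held only in the fits without P3 replicate 1 or P3 replicate 2 (0.00185 to 0.071). Against P4 the difference was 1.06 (SE 0.26) with an adjusted p of 0.0103. P2 lay below P3 by -1.65 (SE 0.27, adjusted p = 0.00161), which was lost without P2 replicate 1 or P2 replicate 2 (0.00068 to 0.0168) and when those populations were fitted alone.

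Acadl, the long-chain acyl-CoA dehydrogenase, lies on chromosome 1 at 66877413 to 66909851 on the minus strand in 12 exon blocks. It measured 374.7 and 213.8 CPM for P1, 91.1 and 93.7 for P2, 287.7 and 122.6 for P3, 164.7 and 81.9 for P4, and 187.1 and 89.4 for P5. Replicates lay far apart in P1, P3, P4 and P5, and P1 did not overlap P2, P4 or P5, nor P2 P3. Its largest difference, 1.67 between P1 and P2 (SE 0.53), had an adjusted p of 0.0273 and was not called. In 4 of the 5 populations, P2 being the exception, the library numbered 1 was the higher, as it was for Ppara and Pdk4. The sum of 10 enterocyte markers, none of them at 0, was also higher in replicate 1 of those populations, at 43300 against 33760 CPM in P1, 26980 against 7555 in P3, 11090 against 3755 in P4 and 19140 against 7377 in P5. In P2 it was 1928 against 4654. The part of enterocyte content in these levels was not tested.

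Hadha encodes the alpha subunit of the trifunctional protein, on chromosome 5 at 30444841 to 30481702 on the minus strand in 20 exon blocks. It shares 78 of its 5341 exonic bases with Fam59b on the opposite strand, and the counting did not use strand. Hadha measured 447.8 and 528.9 CPM for P1, 130.5 and 161.3 for P2, 513.4 and 337.9 for P3, 316.3 and 286.4 for P4, and 318.2 and 297.7 for P5. As for Cpt2, both P2 libraries lay below all others. The gene was 3.35-fold higher in P1 than in P2 (log2 1.74, SE 0.27, adjusted p = 0.00111) and lower in P2 than in P3 by -1.54 (SE 0.27, adjusted p = 0.00245). The first call was lost without P2 replicate 1 (0.000553 to 0.0133) and the second without P2 replicate 1 or P2 replicate 2 (0.00169 to 0.0225) or when fitted on those populations alone. P1 lay above P4 by 0.70 (adjusted p = 0.0602) and above P5 by 0.67 (0.0733), without overlap of libraries but short of the threshold.

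Ppara, the receptor that governs the fasting programme of fat burning, lies on chromosome 15 at 85565413 to 85633249 on the plus strand in 12 exon blocks. It measured 95.7 and 42.0 CPM for P1, 8.84 and 11.8 for P2, 74.3 and 41.5 for P3, 52.5 and 36.9 for P4, and 53.6 and 33.8 for P5. The P2 libraries were the lowest by a wide margin, and the other 4 populations overlapped one another. Ppara was 6.61-fold higher in P1 than in P2 (log2 2.72, SE 0.48, adjusted p = 0.00195) and lower in P2 than in P3 by -2.46 (SE 0.48, adjusted p = 0.00426). The P1 call was lost without P1 replicate 1, P2 replicate 1 or P2 replicate 2 (0.00164 to 0.0231), and the P3 call without P2 replicate 1, P2 replicate 2 or P3 replicate 1 (0.00253 to 0.0374). P2 was also 4.28-fold below P4 (adjusted p = 0.0105) and 4.19-fold below P5 (adjusted p = 0.0104), short of the threshold.

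Ppard, the receptor form found in most tissues, lies on chromosome 17 at 28369699 to 28438414 on the plus strand in 10 exon blocks. It measured 90.6 and 174.8 CPM for P1, 108.5 and 132.0 for P2, 181.6 and 109.2 for P3, 95.9 and 138.7 for P4, and 100.6 and 113.0 for P5. Replicates lay as far apart as populations, and every pair of populations overlapped. Its population means spanned 0.40 on the log2 scale, the narrowest range of the 8, and the widest contrast, P3 against P5, was 0.44 (95% interval -0.36 to 1.24). The interval leaves room for a difference of over 1 on the log2 scale. Per kilobase of exon, Ppard exceeded Ppara in every library but P1 replicate 1, with a ratio of 0.784 and 3.45 for P1, 10.2 and 9.25 for P2, 2.02 and 2.18 for P3, 1.52 and 3.11 for P4, and 1.55 and 2.77 for P5.

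Pdk4 lies on chromosome 6 at 5433351 to 5446309 on the minus strand in 11 exon blocks. It measured 103.7 and 32.5 CPM for P1, 14.3 and 18.7 for P2, 15.9 and 1.78 for P3, 15.7 and 3.97 for P4, and 27.4 and 5.30 for P5. Both P1 libraries were above all 8 others, but the replicates of every population except P2 lay far apart, and P3 replicate 2 held 8 raw counts. The fitted differences of P1 from P3 (3.15, SE 1.13, adjusted p = 0.0583) and from P4 (2.80, SE 1.03, adjusted p = 0.0536) were the largest of the 8 genes and did not pass. P1 replicate 1, where Pdk4 was highest, also held the most of the leukocyte genes Ptprc (112.7 CPM, against 25.8 in P1 replicate 2) and Cd8a (121.8 against 23.9). Cd3e and Cd3g were likewise higher there than in P1 replicate 2. Lyz2 (27.3 against 64.9), Itgam (14.1 against 20.9) and Cd74 went the other way. Over the 8 leukocyte markers the sums were 414.7 to 559.2 CPM in P1, 89.9 to 120.4 in P2, 121.0 to 259.3 in P3, 31.8 to 201.9 in P4 and 48.5 to 223.2 in P5, with Cd79a at 0 in P1 replicate 1 and in 6 other libraries and Cd3e and Cd8a at 0 in both P2 libraries. The sum was 414.7 CPM in P1 replicate 1 and 559.2 in P1 replicate 2, where most of it was Cd74, at 398.1 CPM. The part of leukocyte content in the Pdk4 level was not tested.

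Compared pair by pair, most calls were between P2 and P1 or P3, and Cpt1a was called between P1 and each of P3, P4 and P5. The pairs share libraries, so their values are given side by side. P1 against P2 called 4 of 8 higher in P1 (Cpt2, Ppara, Acadm, Hadha) and 0 lower, with a median log2 difference of 1.81 over the 8 against -0.01 over all genes, of which 15.2% were called higher and 13.9% lower. P2 against P3 called 5 of 8 lower in P2, as it did 10.6% of all genes, with a median of -1.49 against -0.01. P1 against P4 called only Cpt1a, although the median over the 8 was 0.71, against -0.06 over all genes, and 7 of the 8 differences were positive. Scaling bears on that comparison, because removing the mitochondrially encoded genes before scaling moved the median over all genes from -0.06 to -0.26 and the share of calls that were higher in P1 from 59.7% to 46.9%. The same step moved that share from 56.6% to 46.2% for P1 against P5, with a median over all genes of -0.20. It moved the median from -0.01 to -0.16 for P1 against P2. P2 against P5 called 0 of 8, where 15.9% of genes were called in either direction (8.75% higher and 7.14% lower in P2). In that pair 5 of the 8 had an unadjusted p under 0.05, as had 5658 of all 13706 genes. DESeq2 called 5 of the 8 and 3378 of all genes. Among P3, P4 and P5 none of the 8 was called and neither was any other gene, 0.0% in each of the 3 pairs. At an unadjusted p under 0.05 there were 2079 genes for P3 against P4 (1 of the 8), 1587 for P3 against P5 (2 of the 8) and 350 for P4 against P5 (0 of the 8). DESeq2 called 119, 40 and 29 genes there, none of them among the 8.

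**Figure D3:**
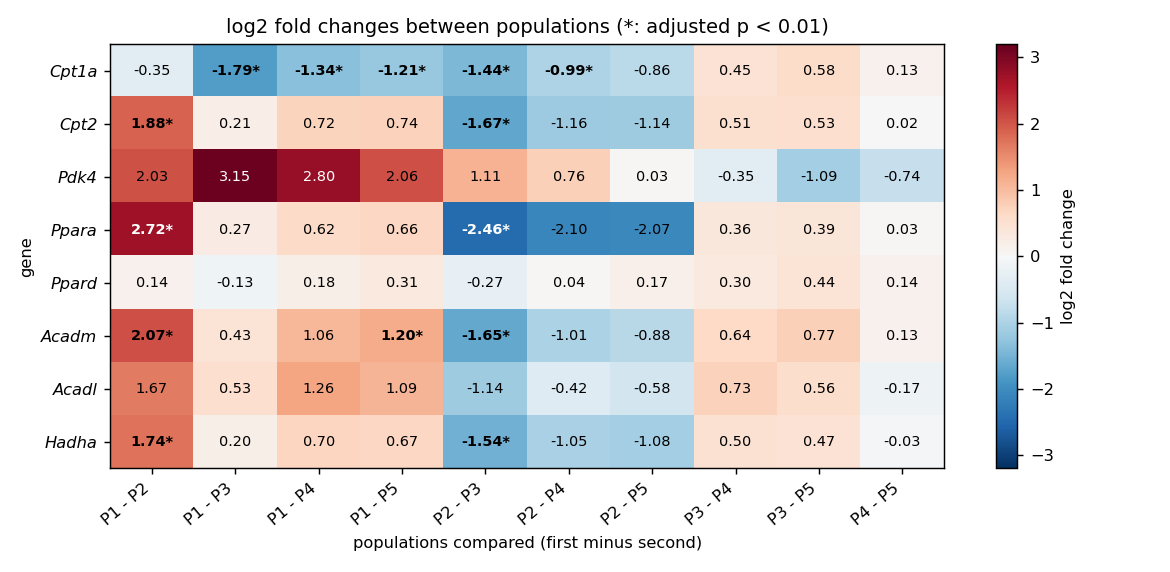
Log2 fold change of each gene in the 10 pairs of populations (first minus second, red higher in the first, blue lower), with asterisks at an adjusted p under 0.01 by edgeR's quasi-likelihood test. The P1 against P2 and P2 against P3 columns hold 4 and 5 calls, the P1 against P3 and P1 against P4 columns hold Cpt1a alone, and the 3 columns at the right hold 0.

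Because P1, P3, P4 and P5 cross low or medium OSCAR with low or high EF1a, the step from EF1alow to EF1ahigh could be compared between OSCAR levels. For Cpt1a the log2 difference of P1 from P3, the OSCARlow gates, was -1.79, and that of P4 from P5, the OSCARmed gates, was 0.13. The difference between the steps was 1.92 (SE 0.31, 95% interval 1.23 to 2.62, adjusted p = 0.0106), just short of the threshold. None of the 8 was called in this interaction, where 0.81% of genes were. DESeq2 called 1 of the 8 there and 1975 of all genes. An unadjusted p under 0.05 was found for 4655 of all 13706 genes and for 2 of the 8, Cpt1a and Pdk4. The other 6 genes had differences of steps of -0.69 to 0.26. The comparison rests on the P3 libraries with their high mitochondrial share. With mitochondrially encoded genes removed before scaling, the Cpt1a difference was 2.02 (adjusted p = 0.00839), and without P3 replicate 1 or P3 replicate 2 it was 1.72 and 2.15, with adjusted p of 0.0109 and 0.0107.

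The separation of Cpt1a from the rest also showed over the 10 libraries, as a description, since these libraries share populations and depth. On log2 CPM, Cpt1a had a Pearson r of 0.20 with Cpt2, 0.05 with Acadm, 0.20 with Hadha and -0.61 with Pdk4. Cpt2, Acadm and Hadha had r of 0.96 to 0.99 with one another, and Ppara had r of 0.88 to 0.93 with those 3. Ppard had r of -0.10 to 0.31 with every other gene of the 8. The most similar gene tested was sought outside the 8 and outside names of the form Gm plus digits or ending in Rik. Cpt1a was most like Erap1 (r = 0.995), an aminopeptidase that trims peptides in the endoplasmic reticulum. Cpt2 and Hadha were both most like Gna11 (0.994 and 0.996), a G protein alpha subunit, Acadm most like Chchd3 (0.992), a mitochondrial cristae protein, and Ppara most like Hkdc1 (0.982), a hexokinase family member. Pdk4 was most like Scin (0.968), an actin-severing protein, Acadl most like Nampt (0.973), an enzyme of NAD synthesis, and Ppard most like Akt1s1 (0.945), a regulator of mTORC1.

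The wider pathway was taken from lists of 75 further genes, of which 69 passed the filter. Across the populations 36 of the 69 differed, against 36.3% of all genes. Between P1 and P2, 33 were higher in P1 and 4 lower, where 15.2% and 13.9% of all genes were, with a median log2 difference of 1.44 over the 69 against -0.01 over all genes. Between P1 and P4 the counts were 21 and 3 (14.0% and 9.44% of all genes) with a median of 0.82 against -0.06. Between P2 and P4 they were 2 and 11 (8.0% and 6.31%) with a median of -0.50 against 0.05. Between P1 and P3, 7 were higher and 4 lower in P1 (7.54% and 8.01%), and between P2 and P3, 2 were higher and 17 lower in P2 (10.4% and 10.6%). The 3 pairs among P3, P4 and P5 held 0 calls, as for every gene. Without the libraries labelled P2 the count across populations was 15, where 15.0% of all genes were called. Without P1 replicate 1 it was 22, where 18.4% of all genes were. Among the named genes of these lists, 15 of the 22 calls between P1 and P2 were kept in all 10 fits that left out a library. Of the others, Acaa1b, Acad11, Bdh1, Crat and Esrra lost theirs without P2 replicate 1 (Crat also without P2 replicate 2, and Acaa1b without either P1 library), and Acsl6 without P1 replicate 2 or P2 replicate 2. Of the 12 calls between P2 and P3, 5 were kept in all 10 fits (Acadvl, Acat1, Bdh1, Etfa, Plin2). The 18 calls between P1 and P4 were each lost without P4 replicate 1 and without P4 replicate 2, and none of the 6 between P1 and P3 or the 16 between P1 and P5 was kept in all 10 fits. Crot and Fasn, 2 of the 18, shared 0.0151 as their highest adjusted p. How many of all genes kept a call for a pair without 1 library is not given here. The lost calls, also those of the 8 genes, can therefore not be read as particular to these genes.

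**Figure D4:**
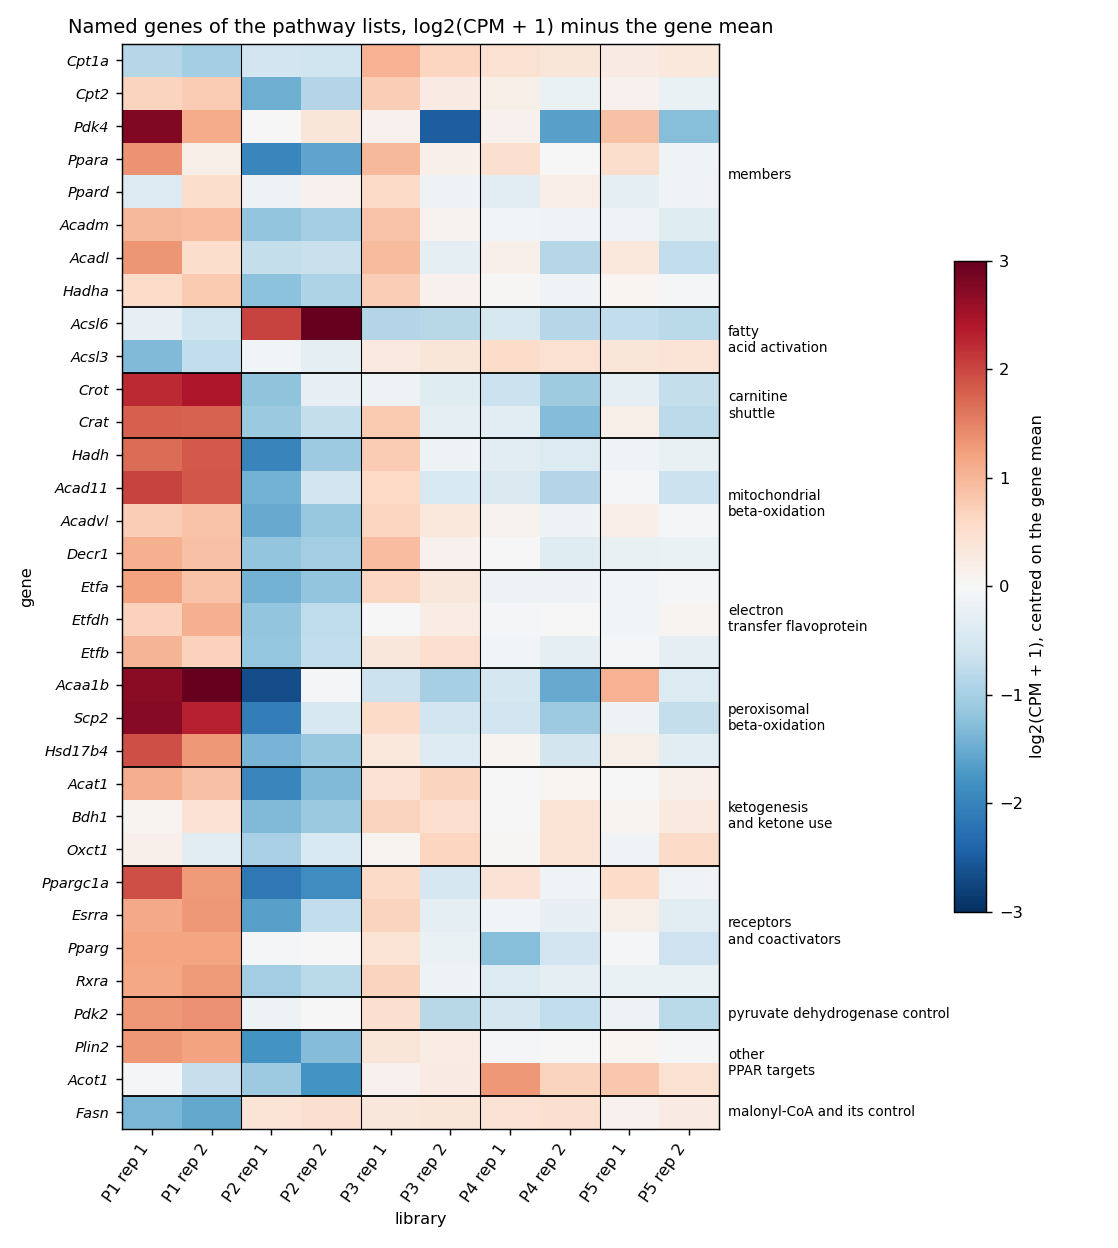
Level of the 8 genes and of the named pathway genes in the 10 libraries, as log2(CPM + 1) minus the mean of the gene over the libraries (red above, blue below), grouped by list. Most rows are red in P1 and blue in P2, while Cpt1a, Acsl3, Acot1 and Fasn are lower in P1 than in P4.

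In mitochondrial beta-oxidation, as for Acadm and Hadha, most calls were between P1 and P2. Of its 13 genes beyond the 8, 9 differed across populations (36.3% of all genes), 9 were higher in P1 than in P2 (15.2%) and none lower, 7 were lower in P2 than in P3 (10.6%), and 3 were higher in P1 than in P4 (14.0%). Of the 9 that differed, Acad9 and Hsd17b10 did not have this shape and are named after their values were seen. Acad9, which serves assembly of respiratory complex I, was 20.8 and 27.8 CPM for P1, 27.4 and 18.7 for P2 and 45.8 to 64.8 elsewhere, and was the 1 gene of the list called lower in P1 than in P3 (log2 -1.22, SE 0.27, adjusted p = 0.00851), a call kept only without P2 replicate 1, P2 replicate 2 or P3 replicate 1 (0.00717 to 0.0656). Hsd17b10, a mitochondrial hydroxyacyl dehydrogenase, was 43.4 and 45.8 CPM for P1, 34.8 and 30.3 for P2 and 58.7 to 79.6 elsewhere. Hadh, the dehydrogenase of shorter hydroxyacyl chains, was 1746 and 1959 CPM for P1 and 138.7 and 257.4 for P2, 9.35-fold higher in P1 (log2 3.22, SE 0.42, adjusted p = 0.000535). Acad11, a further acyl-CoA dehydrogenase, was 2.89 higher in P1 than in P2 (adjusted p = 0.000899) and shares exonic bases with Ccrl1. Acadvl, the very-long-chain enzyme of the inner membrane, was 2.12 higher (adjusted p = 0.000334), shares 1151 exonic bases with Dvl2 on the opposite strand, and was lower in P2 than in each of P3, P4 and P5 with a call. Decr1, needed for unsaturated chains, was 4.28-fold higher in P1 than in P2 (adjusted p = 0.000623). All 3 genes that pass electrons on from the dehydrogenases, Etfa, Etfb and Etfdh, differed across populations. Etfa was 318.2 and 248.1 CPM for P1, 50.6 and 60.0 for P2, and 122.6 to 211.8 in the other 6 libraries.

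Upstream of the mitochondrion the picture was mixed. Of the carnitine shuttle genes beyond Cpt1a and Cpt2, 4 of 6 passed the filter, the muscle and brain forms Cpt1b and Cpt1c being too low. Across populations 2 of the 4 differed, where 36.3% of all genes did. Crot, the peroxisomal octanoyltransferase, was 577.2 and 649.4 CPM for P1 and 51.5 to 109.4 elsewhere, and was called higher in P1 against each of the other 4 populations, 9.16-fold against P4 (log2 3.19, SE 0.36, adjusted p = 0.000903). Crat, which handles acetylcarnitine and shares exonic bases with Dolpp1 and Gm16323, was 317.8 and 313.5 CPM for P1 and 36.1 to 156.1 elsewhere. The acyl-CoA synthetases, which activate fatty acids before the shuttle, went differently, with 2 of 5 differing across populations (36.3% of all genes). Acsl3 was 10.5 and 16.2 CPM for P1 and 22.3 to 41.3 elsewhere, lower in P1 than in P4 by -1.57 (SE 0.25, adjusted p = 0.00182), the same direction as Cpt1a. Acsl6 was 14.3 and 37.7 CPM for P2 and 1.06 to 2.20 elsewhere, and was called higher in P2 against each of the other 4 populations. Acsl3 and Acsl6 share exonic bases with Utp14b and Gm12224.

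Peroxisomal beta-oxidation, which shortens very long chains outside the mitochondrion, had calls for P1 against each other population. Of 11 genes tested, 9 were higher in P1 than in P2 (15.2% of all genes), 5 than in P3 (7.54%), 8 than in P4 (14.0%) and 6 than in P5 (11.2%), and none was called lower. The medians of the log2 differences were 2.31, 1.65, 1.86 and 1.72, and each of the 11 differences was positive against P3, P4 and P5. Scp2, the carrier and thiolase, was 997.8 and 752.8 CPM for P1 against 35.1 to 224.6 elsewhere. Hsd17b4 was 668.5 and 436.3 CPM for P1 and 65.8 to 220.3 elsewhere. Acaa1b, 52.9 and 66.7 CPM for P1 and 0.305 to 15.9 elsewhere, has the close paralogue Acaa1a, between which reads may be split, and shares exonic bases with Dlec1. Acox3, an acyl-CoA oxidase named after its values were seen, ran otherwise, at 46.3 and 47.7 CPM for P1, 53.3 and 61.8 for P2 and 23.4 to 31.7 elsewhere, and was the 1 gene of the list called higher in P2 than in P3, P4 and P5. Of those calls the first was kept in all 10 fits without 1 library, the second in 6 (lost without either library of P2 or P4) and the third only without P3 replicate 1 or P3 replicate 2. For comparison, of the 8 genes only Acadm had P1 above every other library with a call against P2 and P5.

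Of the genes that make or use ketone bodies, 3 are described. Acat1 and Bdh1 differed across populations and Oxct1 did not pass the test. Acat1, which joins acetyl-CoA units, was 412.5 and 353.6 CPM for P1 and 48.8 and 75.6 for P2, 6.15-fold higher in P1 (log2 2.62, SE 0.27, adjusted p = 0.000268), and lower in P2 than in each of P3, P4 and P5. Bdh1, which interconverts acetoacetate and beta-hydroxybutyrate, was 60.7 and 70.3 CPM for P2 and 154.1 to 246.9 elsewhere. Oxct1, which uses ketone bodies, did not pass (adjusted p = 0.0971), at 44.8 to 138.6 CPM over all libraries.

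Among receptors and coactivators beyond Ppara and Ppard, 5 of 7 tested differed across populations, where 36.3% of all genes did. Ppargc1a, a coactivator of mitochondrial genes, was 108.3 and 68.4 CPM for P1, 5.49 and 6.91 for P2, and 19.3 to 41.9 elsewhere, with P1 above P2 by 3.82 (SE 0.47, adjusted p = 0.000475). Esrra was 2.35 higher in P1 than in P2 (adjusted p = 0.00157), and Rxra, the partner of the PPARs, 2.17 higher (adjusted p = 0.000509). Pparg was 26.1 and 26.1 CPM for P1 and 3.93 to 14.9 elsewhere. The fifth, Ppargc1b, a coactivator related to Ppargc1a that is named after its values were seen, ran the other way, at 5.93 and 7.36 CPM for P1, 9.15 and 5.35 for P2 and 22.9 to 30.6 elsewhere. It was lower in P1 than in P4 by -2.16 (SE 0.29, adjusted p = 0.0012), and called lower in P1 than in P3 and P5 as well. The call against P4 was lost without P1 replicate 1, P4 replicate 1 or P4 replicate 2 (0.000836 to 0.0155), that against P3 without either P1 library, and that against P5 without any 1 of the P1 and P5 libraries. Of the other PPAR targets 2 of 9 differed across populations (36.3% of all genes did). Plin2, which coats lipid droplets, was 180.3 and 168.3 CPM for P1, 20.1 and 28.8 for P2, and 69.9 to 92.4 elsewhere. Acot1, an acyl-CoA thioesterase, went another way, at 14.3 to 26.7 CPM in P4 and P5 and 2.23 to 9.83 in P1 and P2.

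Of 6 genes of pyruvate dehydrogenase control beside Pdk4, 1 differed across populations, where 36.3% of all genes did. Pdk2, a further kinase of pyruvate dehydrogenase, was 231.1 and 245.1 CPM for P1 and 52.2 to 131.1 elsewhere, higher in P1 than in P4 by 1.97 (SE 0.39, adjusted p = 0.00453). Per kilobase Pdk4 was 0.0307 to 0.404 of Pdk2 in the 10 libraries. Among 6 genes of malonyl-CoA and its control, 1 differed across populations (36.3% of all genes), Fasn, which consumes malonyl-CoA to build fatty acids. Fasn was 57.9 and 51.2 CPM for P1 and 164.3 to 211.4 elsewhere, lower in P1 than in P4 by -1.93 (SE 0.19, adjusted p = 0.000903) and called lower in P1 against each of the other 4 populations. Like Cpt1a it was low in P1, but in P2 Fasn was at 201.2 and 211.4 CPM, whereas Cpt1a was at 143.9 and 141.9, near its P1 level.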

How the data were processed

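Poly(A) RNA of sorted crypt cells was sequenced from unstranded libraries. The deposited files give raw counts per gene and library: the authors aligned reads with TopHat2 2.1.0 to mm9 and counted exon reads with HTSeq 0.11.2, without strand and in intersection-nonempty mode, after FastQC 0.11.5. The annotation they counted on is not given in the sources used here. Groups came from the sample titles, 2 libraries for each of 5 populations, described by the study as biological replicates.

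Of 35006 gene names, 206 rRNA names were removed, as in the study, and summary rows and a nameless row (at most 0.000596% of counts) were left out. Counts were tested with edgeR 4.0.16 (quasi-likelihood, TMM scaling, filterByExpr, 5 population means over 10 libraries, 5 residual degrees of freedom; R 4.3.3), and p-values were adjusted by Benjamini-Hochberg over all 13706 genes in the fit, with a threshold of 0.01. DESeq2 1.42.0 was an alternative. The code was tested on simulated counts. Levels are CPM on TMM-scaled library sizes, and correlations used log2 CPM with a prior count of 2. Totals of 3857612 to 6485823 counts put the floor of 3 counts at 0.463 to 0.778 CPM, which covers counting error only.

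Coordinates and exon lengths are from the NCBIM37 annotation, the same assembly as mm9 (33643 names matched), and promoters from RefSeq GRCm38.p6 (8 of 8 matched). The 8 genes and all lists were chosen with earlier results of these data known. Of each pathway list, up to 4 genes called across populations, with the widest range of means, were named, with the ketogenesis genes and, for each of the 8, the most correlated gene. That gene was sought outside the 8 and outside names of the form Gm plus digits or ending in Rik. Some genes that this rule names are not reported here. Alternatives were another scaling, no count filter, DESeq2, a replicate block, rRNA or mitochondrial genes kept or removed, a threshold of 0.05, fits of the compared populations alone, and leaving out libraries.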

Additional observations from a re-analysis of the deposited data

Results flagged for a closer look

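Among the genes named here, 2 were called in the interaction, in which 0.81% of all genes were. In these 2 the step from EF1alow to EF1ahigh differed between OSCARlow and OSCARmed cells by a test of that difference (quasi-likelihood test of edgeR, adjusted by Benjamini-Hochberg). Erap1, which was picked because its levels over the same libraries ran closest to those of Cpt1a among the genes searched, had a difference of steps of 2.21 (log2, SE 0.29, adjusted p = 0.00887). It was 48.8 and 50.9 CPM for P1, 262.8 and 193.2 for P3, 152.8 and 152.2 for P4, and 144.4 and 156.2 for P5, so it was higher in P3 than in P1 in 2 of 2 libraries. Because of how Erap1 was picked, its test is not independent of the Cpt1a levels. Fasn had a difference of 2.09 (SE 0.26, adjusted p = 0.00887), from 57.9 and 51.2 CPM for P1 to 191.6 and 193.8 for P3. Both rest on the libraries labelled P3, in which 59.2% and 36.1% of counts were mitochondrially encoded. With those genes removed before scaling the differences were 2.31 and 2.199 (adjusted p = 0.00839 for each). Neither stayed under 0.01 in any of the 10 fits without 1 library, where the adjusted p ran from 0.01 to 0.06 for Erap1 and from 0.0104 to 0.06 for Fasn.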

How the results depend on the processing

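The number of the 8 genes called depended on the settings. In the order P1 against P2, P3, P4, P5, then P2 against P3, P4 and P5, it was 4, 1, 1, 2, 5, 1 and 0, and 4 across populations. DESeq2 size factors gave 2 for P1 against P4, 2 for P2 against P4 and 1 for P2 against P5. Over all genes they called 3267, 2002 and 2189 there, against 3214, 1962 and 2177 in the main fit. The DESeq2 test gave 2 for P1 against P3, 2 for P1 against P4, 5 for P2 against P4 and 5 for P2 against P5. In the same order it called 3559, 4528, 3192 and 3378 of all genes. A threshold of 0.05 gave 2, 5 and 5 for P1 against P4, P2 against P4 and P2 against P5. Removal of mitochondrially encoded genes gave 3 for P2 against P4 and 3 for P2 against P5. It called 1986 and 2192 of all genes there. With no count filter the numbers were 2, 4 and 4 for P1 against P3, P4 and P5, 5 and 4 for P2 against P4 and P5, 7 across populations, and 55 of the pathway genes in place of 36. Across populations 36.1% of all 21996 genes were called without the filter. Fitting only the populations compared gave 0 for P1 against P3, 2 for P1 against P4, 1 for P2 against P3, 5 for P2 against P4 and 2 for P2 against P5. The interaction rose from 0 to 1 with DESeq2 size factors, the DESeq2 test, the threshold of 0.05, the replicate block and removal of mitochondrial genes, and to 2 with no filter. Over all genes its calls were 111 in the main fit. They were 362 with DESeq2 size factors, 1975 with the DESeq2 test and 375 with mitochondrially encoded genes removed. Without the libraries of P2 the count across populations was 1, with 15 pathway genes and 15.0% of all genes. Without those of P2 and P3 it was 2, with 29.0% of all genes.

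The labels give replicate numbers but not what a number shares between populations, and deviations of same-numbered libraries correlated at -0.06 (P2 with P3) to 0.55 (median 0.25), not all over 0.1, so the numbers were not taken as pairs. A replicate block gave 2 for P1 against P3, 4 for P1 against P4, 2 for P2 against P4, 1 for P2 against P5, 1 for the interaction and 7 across populations, the 3 added there being Ppara (adjusted p = 0.00197), Pdk4 (0.00571) and Acadl (0.00771). Leaving out each library in turn gave 1 to 4 for P1 against P2, 0 to 1 for P1 against P3, 0 to 2 for P1 against P4 and P1 against P5, and 0 to 5 for P2 against P3, P4 and P5. It gave 1 to 5 across populations, where 18.4% to 44.2% of all genes were called, 22 to 42 pathway genes and 0 for the interaction. Pdk4 in P3 against P5 changed sign without P5 replicate 1, from -1.09 to 0.52, and ran from -3.21 to 0.52 over the fits without 1 library. Of 272 single-gene values under other settings, 202 kept their side of the threshold, 65 passed it newly, 5 no longer passed and 0 changed sign. Of 340 with a library left out, 41 no longer passed and 20 passed newly. Keeping rRNA genes changed no count by more than 1.5 times. The cause of these changes was not tested. With 2 libraries a population, a missed threshold does not show that levels were equal.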

Other observations

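Cd74, the invariant chain of MHC class II, was higher in replicate 2 in each of the 5 populations, the reverse of the order seen in 4 of 5 for Pdk4, Ppara and Acadl. It was 62.7 and 398.1 CPM for P1, 2.44 and 50.2 for P2, 51.0 and 235.8 for P3, 21.4 and 188.0 for P4, and 37.1 and 212.5 for P5. Cd74 was looked at as a leukocyte marker and singled out after its values were seen. The haemoglobin and heme genes of the erythrocyte list summed to 76.6 and 154.5 CPM in the P3 libraries and to 0.106 to 23.1 elsewhere.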
